A study of Homo sapiens with 12 samples.

Results

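The genes described here are 9 neural and neuronal genes out of the 17096 genes measured in a human stem cell differentiation towards heart muscle. Most were picked because they were high in the libraries labelled knockout of E2A, so their values in those libraries, and their difference from wild type, chose them and are given as a description with no test. FEZF1, OTX2 and SP8 make up a forebrain-like group, PAX3 and POU4F1 with POU3F1 a dorsal and POU factor group, and MAP2, TUBB3 and VGF a neuronal group. The groups are named for what the genes are known to mark, and no cell was identified from them.

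H7, a human embryonic stem cell line, was taken through directed differentiation, and RNA was sequenced at days 3, 7 and 15. The labels call the cells cardiac mesoderm at day 3 and cardiomyocytes at days 7 and 15. Each day has a wild-type group and a group with the genotype E2A-/-, with 2 libraries each, so 12 libraries in 6 groups. The gene targeted, E2A, is now called TCF3, and its product is a helix-loop-helix factor that binds short DNA motifs called E-boxes. The sources used here do not give the position of the edit or whether the knockout cells came from 1 clone. Nothing says that the 2 libraries of a group came from separate cultures, so the p-values speak of the spread among these libraries alone, which may be technical.

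TCF3 itself was looked at first. Its FPKM (fragments per kilobase of transcript, scaled to the size of the library) was 74.4 to 180 in the wild-type libraries and 108 to 180 in the libraries labelled knockout. In limma, a linear model test fitted across all genes, labelled knockout minus wild type was -0.15 (adjusted p = 0.618) at day 3, 0.36 (adjusted p = 0.159) at day 7 and 0.66 (adjusted p = 0.0234) at day 15, on the log2(FPKM + 1) scale. The difference at day 15 no longer passed without labelled knockout replicate 1 (0.34), without wild-type replicate 1 (0.46) or in a fit on the compared groups alone (0.66, adjusted p = 0.0838). That at day 7 passed after scaling to nuclear genes (0.57, adjusted p = 0.0234) and in a fit on the compared groups alone (0.36, adjusted p = 0.0172). TCF3 mRNA was thus not lower in labelled knockout by these tests, and the text speaks of libraries labelled knockout throughout. The libraries' depth was estimated at 6800000 to 11700000 fragments in 9 of 12 libraries, and the estimates of the other 3 (both of wild type at day 15 and labelled knockout at day 7, replicate 1) are not used. Mitochondrially encoded transcripts held 8.1% to 8.5% of summed FPKM in wild type at day 7 against 18.5% to 20.2% in labelled knockout, and 26.1% to 26.2% against 13.9% to 14.3% at day 15. As FPKM are shares of a library, scaling to nuclear genes was run as an alternative. It moved the median log2 change over all genes from -0.01 to 0.12 at day 3 and from 0.06 to 0.22 at day 7.

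FEZF1 is a zinc finger repressor of the early forebrain. OTX2 is a homeodomain factor of the forebrain and midbrain that the early epiblast also expresses, and SP8 is a zinc finger factor of the anterior neural border. PAX3 is a paired box factor of the dorsal neural tube, the neural crest and the dermomyotome, POU4F1 a POU homeodomain factor of sensory neurons, and POU3F1 a POU factor of the late epiblast, of neural progenitors and of Schwann cells. MAP2 and TUBB3 encode a microtubule-associated protein and a beta tubulin that are widely used to mark neurons. VGF encodes a neuropeptide precursor that is stored in secretory granules. In development, neural plate cells first express regional transcription factors and later, as they leave the cell cycle, cytoskeletal and secretory genes of neurons.

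Promoter sequences are shown because E-boxes are the letters that the product of the targeted gene is known to bind. RefSeq windows (GRCh38.p14) of 300 bases, from 250 before to 50 after a start site, were found for 9 of 9 members, 14 windows in all. E-boxes have the general form CANNTG, of which only 2 kinds were searched, and letters of the other kinds are not marked. The motif CAGCTG, which reads the same on both strands, was searched, as were the motif CAGGTG and its reverse complement, written CACCTG, and the matches found in these windows do not overlap. They occur in 2 of the 14 windows, those of POU4F1 and 1 of the windows of OTX2. Of 35116 promoters of the same length, 34.5% hold at least 1 of these motifs (17.9% CAGCTG, 20.6% CAGGTG or CACCTG). The windows below are those of POU4F1 (chr13:78603503-78603802, minus strand) and OTX2 (chr14:56805618-56805917, minus strand), with the letters searched in capitals, and those of the members with the widest gap between genotypes at day 3 and day 7, FEZF1 (chr7:122304701-122305000, minus strand) and PAX3 (chr2:222298949-222299248, minus strand), where none of the letters searched were found. All are written 5′ to 3′ along the gene.
POU4F1: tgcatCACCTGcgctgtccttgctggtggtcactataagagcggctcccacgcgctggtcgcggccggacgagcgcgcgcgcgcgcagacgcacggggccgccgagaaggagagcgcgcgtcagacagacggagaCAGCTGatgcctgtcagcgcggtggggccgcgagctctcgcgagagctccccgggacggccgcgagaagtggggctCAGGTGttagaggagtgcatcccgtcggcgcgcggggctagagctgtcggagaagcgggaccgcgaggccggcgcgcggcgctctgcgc
OTX2: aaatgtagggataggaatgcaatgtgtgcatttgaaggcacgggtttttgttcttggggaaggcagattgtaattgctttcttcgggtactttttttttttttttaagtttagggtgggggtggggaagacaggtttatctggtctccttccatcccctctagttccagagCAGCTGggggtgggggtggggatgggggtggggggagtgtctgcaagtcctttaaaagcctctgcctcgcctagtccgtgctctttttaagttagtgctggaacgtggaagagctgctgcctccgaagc
FEZF1: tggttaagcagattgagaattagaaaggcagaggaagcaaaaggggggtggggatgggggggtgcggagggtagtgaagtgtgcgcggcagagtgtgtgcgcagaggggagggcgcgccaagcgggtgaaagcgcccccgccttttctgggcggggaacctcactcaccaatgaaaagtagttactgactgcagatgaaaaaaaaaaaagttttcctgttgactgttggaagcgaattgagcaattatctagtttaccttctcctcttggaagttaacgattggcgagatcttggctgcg
PAX3: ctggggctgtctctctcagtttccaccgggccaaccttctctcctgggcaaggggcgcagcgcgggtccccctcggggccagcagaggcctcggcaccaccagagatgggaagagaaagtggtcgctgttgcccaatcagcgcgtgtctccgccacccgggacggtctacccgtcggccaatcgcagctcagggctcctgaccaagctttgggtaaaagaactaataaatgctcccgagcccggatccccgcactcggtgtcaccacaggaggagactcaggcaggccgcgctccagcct
In the POU4F1 window the first base of CACCTG lies at -245 relative to the start site, that of CAGCTG at -115 and that of CAGGTG at -39. The OTX2 window holds its one match, CAGCTG, at -79. A match is a run of letters, not a measured binding site. No match in a window says only that those letters are not in it.

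**Figure D1:**
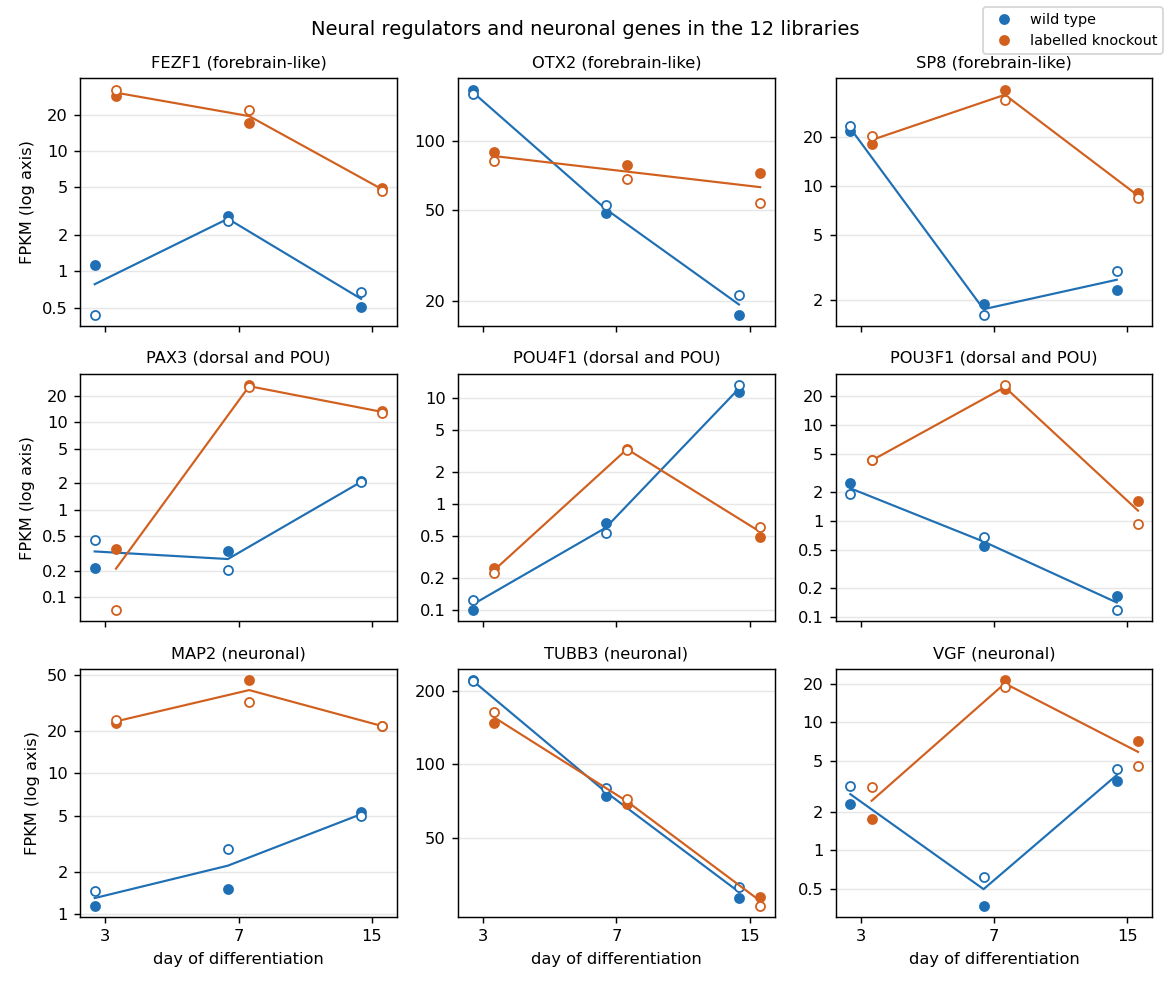
FPKM (log axis, which differs between panels) of the 9 members against day of differentiation (days evenly spaced), with 1 point per library (filled, replicate 1, and open, replicate 2) and lines through the group means. Labelled knockout (orange) lies above wild type (blue) at day 7 in 8 of 9 panels, the exception being TUBB3, and below it at day 15 for POU4F1.

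At day 3, both libraries labelled knockout lay above both wild-type libraries for 4 members (FEZF1, POU4F1, POU3F1 and MAP2) and below them for 3 (OTX2, SP8 and TUBB3), and they overlapped for PAX3 and VGF. Over all 16295 genes tested, the same held for 30.7% above and 35.0% below. At day 7, 8 members lay above and TUBB3 below, beside 39.8% and 34.8% of all genes. At day 15, 7 lay above, POU4F1 below, and TUBB3 overlapped, beside 34.1% and 30.6%. Nothing is read from these counts, since the same values chose the members. In these bulk samples a lower level can mean fewer cells of a type or less RNA per cell, which cannot be told apart.

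Among the forebrain-like genes, FEZF1 (chr7:122301394-122310691, minus strand, GENCODE release 29 on GRCh38) had the widest gap at day 3. It measured 1.13 and 0.437 FPKM at day 3 in wild type and 28.7 and 32.3 FPKM in labelled knockout. Wild type held 2.86 and 2.61 FPKM at day 7 and labelled knockout 17.2 and 21.8 FPKM. By day 15 wild type was at 0.506 and 0.680 FPKM and labelled knockout at 4.98 and 4.62 FPKM. The groups never overlapped, and labelled knockout was highest at day 3 and lower at each later day. The ratio of group means was 38.9 at day 3, 7.11 at day 7 and 8.09 at day 15. Labelled knockout minus wild type was 4.17, 2.44 and 1.86 on the log2(FPKM + 1) scale (SE 0.21 for each), a scale on which low values change less than in ratios. The antisense gene FEZF1-AS1 overlaps FEZF1 on the opposite strand, and the sources used here do not give the strand setting of the counting. It held 5.20 and 8.15 FPKM in labelled knockout at day 3, then 11 and 11.2 FPKM (day 7), and at most 1.23 FPKM in any wild-type library. Its highest day in labelled knockout was thus day 7 and that of FEZF1 day 3. Reads of the pair cannot be told apart without strand.

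OTX2 (chr14:56799905-56810479, minus strand) had the highest values of the group. At day 3 it measured 167 and 159 FPKM in wild type and 89.6 and 82.1 FPKM in labelled knockout, so wild type was the higher group, by 1.90 times in means. The order was the opposite at day 7, with 48.4 and 52.5 FPKM in wild type and 78.6 and 68.2 FPKM in labelled knockout. By day 15 wild type was at 17.5 and 21.3 FPKM and labelled knockout at 72.1 and 53.6 FPKM, a ratio of means of 3.24. Labelled knockout minus wild type on the log2 scale was -0.92 at day 3, 0.53 at day 7 and 1.64 at day 15 (SE 0.15 for each). The labelled knockout means went from 85.8 to 73.4 and 62.8 FPKM, and the day 7 and day 15 libraries overlapped. Wild-type means went from 163 to 50.5 and 19.4 FPKM, so wild type moved more between days.

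SP8 (chr7:20782283-20786886, minus strand) was similar in level at day 3, with 21.7 and 23.2 FPKM in wild type and 18.0 and 20.2 FPKM in labelled knockout. At day 7 wild type held 1.89 and 1.62 FPKM, and labelled knockout 38.8 and 33.4 FPKM, the highest SP8 values of all groups. The day 15 libraries held 2.30 and 3.02 FPKM in wild type and 9.03 and 8.37 FPKM in labelled knockout. The groups did not overlap on any day, but their gap at day 3 was small (log2 difference -0.23, SE 0.16, and -0.06 after scaling to nuclear genes). At days 7 and 15 the log2 differences were 3.75 and 1.41, and the ratios of means 20.6 and 3.27. The genes of this group therefore had unlike courses in labelled knockout: FEZF1 and OTX2 had their highest mean at day 3 and SP8 at day 7.

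In the dorsal and POU group, PAX3 (chr2:222199888-222298996, minus strand) was close to absent in both genotypes at day 3. Wild type held 0.214 and 0.453 FPKM and labelled knockout 0.353 and 0.071 FPKM, which overlap. At day 7 wild type held 0.342 and 0.205 FPKM and labelled knockout 26.6 and 25.04 FPKM. This ratio of means, 94.6, was the widest of all 9 members on any day, and it rests on a wild-type level under 1 FPKM. At day 15 wild type held 2.11 and 2.06 FPKM and labelled knockout 13.3 and 12.9 FPKM, a ratio of 6.30. The log2 differences were -0.14, 4.40 and 2.19 at days 3, 7 and 15 (SE 0.18 for each).

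POU4F1 (chr13:78598362-78603560, minus strand) is the one member that stood far higher in wild type on any day. At day 15 it measured 11.3 and 13.3 FPKM in wild type and 0.488 and 0.605 FPKM in labelled knockout, a ratio of wild type to labelled knockout of 22.5. At day 7 the order was the other way, with 0.663 and 0.532 FPKM in wild type and 3.34 and 3.26 FPKM in labelled knockout. At day 3 both genotypes were near the limit of detection, with 0.0996 and 0.125 FPKM in wild type and 0.250 and 0.222 FPKM in labelled knockout. These correspond to an estimated 5.1 and 6.2 fragments in wild type and 13.0 and 11.1 in labelled knockout, too few to give weight to the order. The log2 differences were 0.15, 1.43 and -3.10 (SE 0.16 for each). Labelled knockout thus reached its highest POU4F1 mean at day 7 and wild type at day 15. POU4F1 passed the filter on low values through 4 libraries alone, those of labelled knockout at day 7 and wild type at day 15.

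POU3F1 (chr1:38044611-38046794, minus strand) was highest in labelled knockout at day 7. Its values were 2.49 and 1.89 FPKM in wild type and 4.28 and 4.28 FPKM in labelled knockout at day 3. By day 7 wild type was at 0.545 and 0.673 FPKM and labelled knockout at 23.6 and 26.2 FPKM, a ratio of means of 40.9. The day 15 libraries held 0.165 and 0.117 FPKM in wild type and 1.63 and 0.930 FPKM in labelled knockout, where the wild-type values are so low that no ratio is given. The groups did not overlap on any day, and the log2 differences were 0.73, 4.01 and 0.98 (SE 0.19 for each). PAX3, POU4F1 and POU3F1 all had their highest labelled knockout mean at day 7, and PAX3 kept the largest share of it at day 15.

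Among the neuronal genes, MAP2 (chr2:209424058-209734118, plus strand) was higher in labelled knockout on all 3 days. In wild type its values were 1.15 and 1.44 FPKM (day 3), 1.51 and 2.89 FPKM (day 7) and 5.30 and 4.95 FPKM (day 15). In labelled knockout they were 22.8 and 24.1 FPKM (day 3), 45.9 and 32.4 FPKM (day 7) and 21.6 and 21.8 FPKM (day 15). Every labelled knockout library was above every wild-type library, whatever the day. The ratios of means were 18.1, 17.8 and 4.23, and the log2 differences 3.42, 3.66 and 1.89 (SE 0.22 for each).

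TUBB3 (chr16:89921392-89938761, plus strand) did not share this pattern. It measured 220.1 and 219.5 FPKM in wild type and 148 and 163 FPKM in labelled knockout at day 3. Wild type held 74.5 and 79.7 FPKM at day 7, where labelled knockout held 68.6 and 72.5 FPKM. The day 15 libraries held 28.5 and 31.7 FPKM in wild type and 28.8 and 26.5 FPKM in labelled knockout. Both genotypes were highest at day 3 and lower on each later day, and at day 15 they overlapped. The log2 differences were -0.50, -0.13 and -0.12 (SE 0.11 for each), and that at day 7 was 0.08 after scaling to nuclear genes, so its sign depends on the scaling. A longer gene model on the same strand, AC092143.1, overlaps TUBB3 and starts in the region of the neighbouring MC1R, and it was not analysed here. MC1R itself was at 1.21 to 4.53 FPKM in all libraries.

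VGF (chr7:101162509-101165593, minus strand) overlapped between genotypes at day 3, with 2.31 and 3.18 FPKM in wild type and 1.77 and 3.11 FPKM in labelled knockout. At day 7 wild type held 0.372 and 0.625 FPKM and labelled knockout 21.2 and 18.9 FPKM, a ratio of means of 40.2. By day 15 wild type was at 3.45 and 4.29 FPKM and labelled knockout at 7.15 and 4.57 FPKM, so that the lower labelled knockout library lay just above the higher wild-type one. The log2 differences were -0.14, 3.81 and 0.48 (SE 0.25 for each), and the one at day 3 was 0.15 without labelled knockout replicate 1. The 3 neuronal genes thus differed: MAP2 stood apart between genotypes on every day, VGF mainly at day 7, and TUBB3 differed most at day 3, where wild type was higher.

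**Figure D2:**
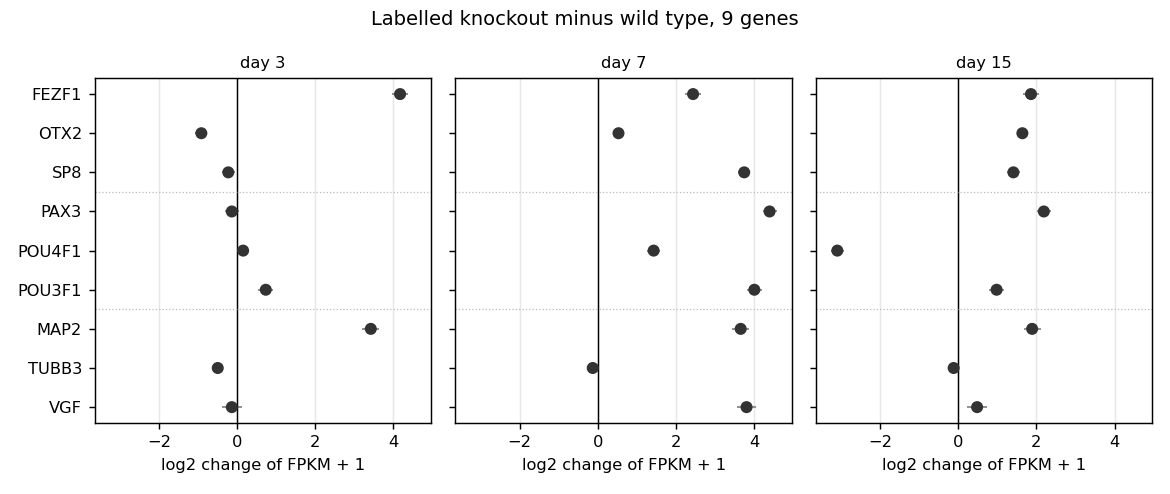
Labelled knockout minus wild type on the log2(FPKM + 1) scale for the 9 members at days 3, 7 and 15, with bars of 1 standard error from the model. At day 3 the values run from -0.92 (OTX2) to 4.17 (FEZF1), and at day 15 POU4F1 lies at -3.10 while the other members run from -0.12 (TUBB3) to 2.19 (PAX3).

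The wild-type course was tested, since the members were not picked on it, although the wild-type libraries also took part in the comparisons they were picked on. All 9 members passed the filter of at least 1 FPKM in at least 2 of the 12 libraries. PAX3, POU4F1 and POU3F1 did so with 6, 4 and 7 libraries. In limma, with p-values adjusted over all 16295 genes, 2 members rose and 5 fell from day 3 to day 7, 4 rose and 3 fell from day 7 to day 15, and 3 rose and 4 fell from day 3 to day 15. Of all genes, 21.1% rose and 22.6% fell in the first of these comparisons (43.7% called). The shares were 25.5% and 26.8% in the second (52.3%) and 29.2% and 29.9% in the third (59.1%). Of the members, 7 of 9 were called each time. Nothing is read from this count, since the wild-type libraries took part in picking the members. Scaling to nuclear genes raised the share of rises among all called genes from 48.7% to 60.1% in the second comparison and from 49.4% to 62.1% in the third.

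Of the forebrain-like genes, OTX2 fell by 1.67 on the log2 scale from day 3 to day 7 (limma adjusted p = 1.08e-05) and by a further 1.34 to day 15 (5.42e-05). SP8 fell by 3.09 from day 3 to day 7 (adjusted p = 1.3e-07), the largest fall among the members between neighbouring days in wild type, and its difference from day 7 to day 15 was 0.40 (0.0501). FEZF1 rose by 1.10 from day 3 to day 7 (0.00177) and fell by 1.23 to day 15 (0.000727), at levels that stayed under 3 FPKM in the group means. It is the only member with its highest wild-type mean at day 7.

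Of the dorsal and POU genes, POU4F1 rose by 3.05 from day 7 to day 15 (limma adjusted p = 6.53e-07). Its difference of 0.52 from day 3 to day 7 (0.0236) did not pass when any 1 of the 4 libraries compared was left out (0.46 to 0.58). PAX3 differed by -0.06 from day 3 to day 7 (adjusted p = 0.804) and rose by 1.28 to day 15 (0.000222). POU3F1 fell by 0.98 from day 3 to day 7 (0.00203) and differed by -0.50 from day 7 to day 15 (0.0511). PAX3 and POU4F1 were thus highest in wild type at day 15, and POU3F1 at day 3.

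Of the neuronal genes, TUBB3 fell by 1.5 from day 3 to day 7 (limma adjusted p = 1.57e-06) and by 1.33 from day 7 to day 15 (5.85e-06). MAP2 differed by 0.45 from day 3 to day 7 (0.125), or by 0.77 without wild-type day 7 replicate 1 (0.0274), and rose by 0.97 to day 15 (0.00411). VGF fell by 1.32 from day 3 to day 7 (0.00176) and rose by 1.70 to day 15 (0.000302). Its day 15 level differed from that of day 3 by 0.38 (0.211). TUBB3 and MAP2, both used to mark neurons, moved in opposite directions from day 7 to day 15 in wild type.

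**Figure D3:**
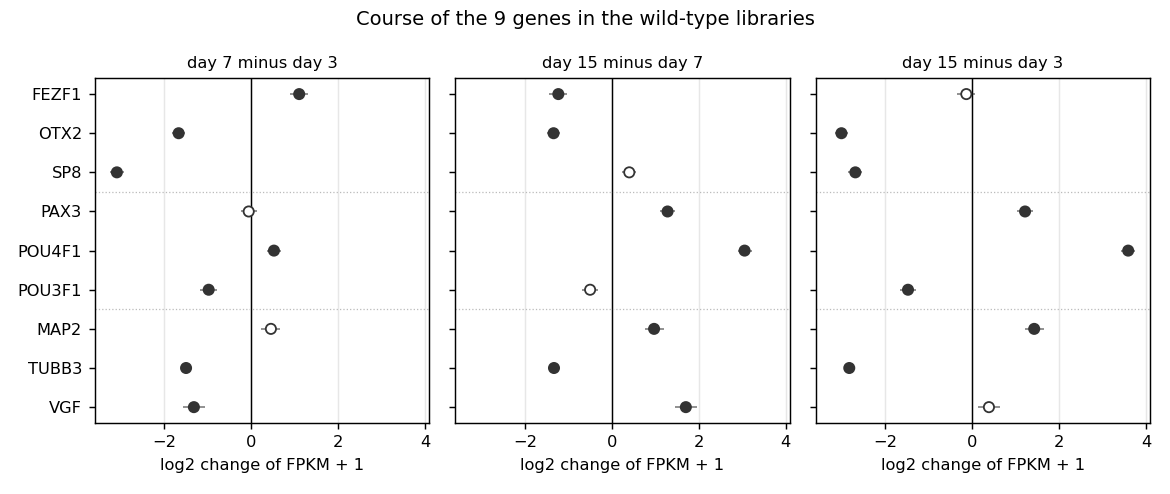
Wild-type change between days on the log2(FPKM + 1) scale for the 9 members, with bars of 1 standard error and marks for the changes that passed the limma test at an adjusted p of 0.05. TUBB3 and OTX2 fell in both steps, and POU4F1 has the largest rise, 3.05 from day 7 to day 15.

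The order of levels over the 6 groups differed from member to member. The highest mean was labelled knockout at day 7 for SP8, PAX3, POU3F1, MAP2 and VGF, labelled knockout at day 3 for FEZF1, wild type at day 3 for OTX2 and TUBB3, and wild type at day 15 for POU4F1. Labelled knockout had its highest mean at day 15 for 0 of 9 members, wild type for 4 of 9 (PAX3, POU4F1, MAP2 and VGF), beside 36.6% and 38.0% of all genes tested. The labelled knockout means of all 9 members were lower at day 15 than at day 7, by 0.23 (OTX2) to 3.52 (POU3F1) on the log2 scale, as were those of 52.0% of all genes. Nothing is read from these counts either, since most members were picked for high labelled knockout values. Neighbouring groups in the order overlapped in their libraries for 6 members, among them FEZF1 in wild type at days 3 and 15 and POU4F1 in wild type at day 7 and labelled knockout at day 15.

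Over all genes, 23.6% were called by genotype at day 3, 42.0% at day 7 and 35.1% at day 15. To set the members beside other neural genes, 5 wider lists were tested by genotype. They hold forebrain, neural progenitor, dorsal with crest and sensory, neuronal, and secretory granule genes, and share no gene with each other. The lists were chosen with earlier results of these data known, so their shares and p-values give no independent support. Of their 146 genes 102 were measured and 98 passed the filter. At day 3, 21 (21.4%) were higher and 25 (25.5%) lower in labelled knockout, beside 9.51% and 14.1% of all genes. At day 7, 34 (34.7%) were higher and 14 (14.3%) lower, beside 22.1% and 19.9%. At day 15, 54 (55.1%) were higher and 11 (11.2%) lower, beside 18.9% and 16.2%. The median log2 change was -0.11, 0.27 and 0.69 at days 3, 7 and 15, against -0.01, 0.06 and 0.03 over all genes. At day 3 the count of higher genes was 11 without wild-type replicate 2. Of called genes of these lists at day 7, 70.8% were higher, and 80.4% after scaling to nuclear genes. Over all called genes this share went from 40.3% to 62.3% at day 3 and from 52.6% to 68.2% at day 7 with that scaling.

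The forebrain list held 12 measured genes. At day 3, 1 was higher and 3 lower, at day 7, 3 were higher and 1 lower, and at day 15, 9 were higher and 1 lower, with medians of -0.06, 0.22 and 0.79. SFRP2, a secreted Wnt modulator, held 83.2 ± 1.93 FPKM (SD, n = 2) in labelled knockout and 10.3 ± 0.275 in wild type at day 7, a log2 rise of 2.90 (limma adjusted p = 1.53e-07), and it rose by 1.91 at day 15 (2.09e-06). SFRP1, of the same family, was the one higher gene at day 3 (1.17, 3.93e-05) and was higher at day 7 too (0.77, 0.000192), and SHISA2 was lower at day 3 (-1.60, 3.71e-05). OTX1, the paralogue of OTX2, did not pass at day 3 (-0.26, adjusted p = 0.375) or day 7 (0.28, 0.289) but rose by 2.02 at day 15 (5.75e-05), to 14.7 ± 1.02 FPKM from 2.91 ± 0.836. DLX5, a homeobox factor, rose by 1.72 at day 15 (0.000334). TBR1, a factor of cortical neurons, fell by 2.44 at day 15 (6e-05), from 6.03 ± 0.50 FPKM in wild type to 0.319 ± 0.371. SIX6, RAX, LHX5, EMX2 and FEZF2, the paralogue of FEZF1, were not analysed here.

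Neural progenitor genes showed the highest share of higher calls among the 5 lists at each day: 7 of 18 tested at day 3, 11 at day 7 and 15 at day 15, with 3, 0 and 0 lower. The medians were -0.07, 1.45 and 1.49. SOX21, a SOX factor of neural progenitors, rose by 3.50 at day 3 (limma adjusted p = 3.54e-06) and by 4.46 at day 7 (2.05e-07), where it held 37.0 ± 1.84 FPKM in labelled knockout against 0.736 ± 0.20 in wild type. SOX2, which pluripotent and neural progenitor cells both express, rose by 2.15, 2.82 and 2.46 at days 3, 7 and 15 (2.33e-05, 1.71e-06 and 4.99e-06). SOX11 rose by 1.63 at day 3 (7.08e-06), and ZIC2 by 3.60 at day 7 (3.85e-08) and 2.87 at day 15 (2.04e-07). NR2F1, a nuclear receptor, differed by -0.19 at day 3 (0.552) and rose by 2.92 at day 7 (5.39e-06) and 3.13 at day 15 (4.85e-06). PROM1 and IRX3 were lower at day 3, by -1.29 (0.000687) and -1.01 (0.00223). POU3F2, the relative of POU3F1, rose by 1.40 at day 7 (0.000111), at 1.76 and 2.23 FPKM in labelled knockout. SOX1 and PAX6 were not analysed here.

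Of 22 dorsal, neural crest and sensory genes, 3 were higher and 7 lower at day 3, 9 higher and 7 lower at day 7, and 17 higher and 2 lower at day 15, with medians of -0.29, 0.26 and 1.31. WNT3A and GDF7, signals of the dorsal midline, rose at day 15 by 3.56 (limma adjusted p = 1.57e-06) and 2.64 (3.6e-06). WNT3A held 18.7 ± 2.11 FPKM in labelled knockout and 0.687 ± 0.352 in wild type, and it had already risen by 2.53 at day 7 (9.58e-06). ZIC1, a dorsal zinc finger factor, rose by 2.92 at day 15 (2.66e-05). ISL1, MSX1 and MSX2 were lower at day 3 (-1.25, -1.28 and -1.38) and at day 7 (-1.52, -1.01 and -1.71), with adjusted p from 1.18e-05 to 0.000319. At day 15 ISL1 was lower (-0.94, 0.000273), MSX1 was higher (1.13, 0.000231), and MSX2 did not pass (0.08, 0.736). These 3 genes also serve in cardiac or mesodermal progenitors. TFAP2C, a crest and surface ectoderm factor, was higher at day 7 (1.65, 0.000111). SOX9 changed from higher at day 7 (1.86, 3.19e-05) to lower at day 15 (-0.93, 0.00261). PAX7, FOXD3 and NEUROG1 were not analysed here.

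The 29 neuronal genes tested split in direction: 8 higher and 5 lower at day 3, 9 higher and 2 lower at day 7, and 8 higher and 5 lower at day 15, with medians of 0.06, 0.13 and 0.25. DPYSL5, a protein of growing axons, was higher on all 3 days, by 1.54 (limma adjusted p = 0.000429), 1.92 (4.46e-05) and 3.20 (3.22e-06). DPYSL3 rose by 1.78 at day 3 (3.59e-06), from 77.4 ± 4.94 to 268 ± 17.3 FPKM. GAP43, of the growth cone, rose by 1.42 at day 7 and at day 15 (0.000236 and 0.000328), and NEFM, a neurofilament subunit, by 2.84 at day 15 (4.44e-05). STMN2, SYP and SYT1, genes of the neuronal cytoskeleton and synaptic vesicles, were lower at day 3 by -1.60, -1.55 and -1.60 (0.000185, 0.000267 and 0.000687), as TUBB3 stood lower there. ROBO3, an axon guidance receptor, was higher at day 7 (1.70, 0.00143). NCAM1 was lower at day 7 (-1.21, 0.00408) and day 15 (-1.16, 0.00638). MAP1B, a relative of MAP2, was higher at day 3 by 0.57 (0.00269) and lower at day 15 by -1.04 (4.7e-05).

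The secretory granule list, which fits VGF by function, had 2 higher and 7 lower of 17 at day 3, 2 higher and 4 lower at day 7, and 5 higher and 3 lower at day 15, with medians of -0.55, 0.09 and 0.15. At day 3 CHGA, a granule core protein, was lower by -1.40 (limma adjusted p = 0.0012), CPE, a prohormone-processing enzyme, by -1.27 (0.000365), and the neuropeptide NPY by -1.85 (0.00153). CPE was higher at day 7 by 0.73 (0.004) and at day 15 by 2.0 (1.38e-05). NPY was lower at day 7 (-2.31, 0.000182), at 39.7 ± 2.52 FPKM against 200 ± 11 FPKM, on the day when VGF was at its highest in labelled knockout. PCSK1N was lower at day 7 by -2.22 (5.48e-05). SCG5 was higher at day 3 by 1.23 (0.000944), SYT7 was lower at day 7 (-1.04, 0.000206) and higher at day 15 (1.02, 0.00032), and CADPS was lower at day 15 by -1.44 (0.000335).

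Relatives of the members by family (38 listed, 29 tested) were 1 higher and 8 lower at day 3, 2 higher and 5 lower at day 7, and 7 higher and 5 lower at day 15. The tubulins TUBB4B (-0.95, limma adjusted p = 0.00137) and TUBA1C (-0.86, 0.00155) and the factor SP5 (-1.18, 0.00044) were lower at day 3. At day 7 TUBA4A (-2.08, 6.48e-05) and MAP1A (-0.72, 0.00413) were lower. TUBB6 (-1.03, 0.000567) and TUBB2A (-1.29, 0.00011) were lower at day 15, and SP1 higher (0.96, 0.00295). TUBB2B did not pass on any day (-0.38, 0.04 and 0.25, adjusted p 0.0675, 0.855 and 0.177). TUBB3, TUBB2A and TUBB2B are close in sequence, and how reads with several placements were treated is not stated in the sources used here.

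**Figure D4:**
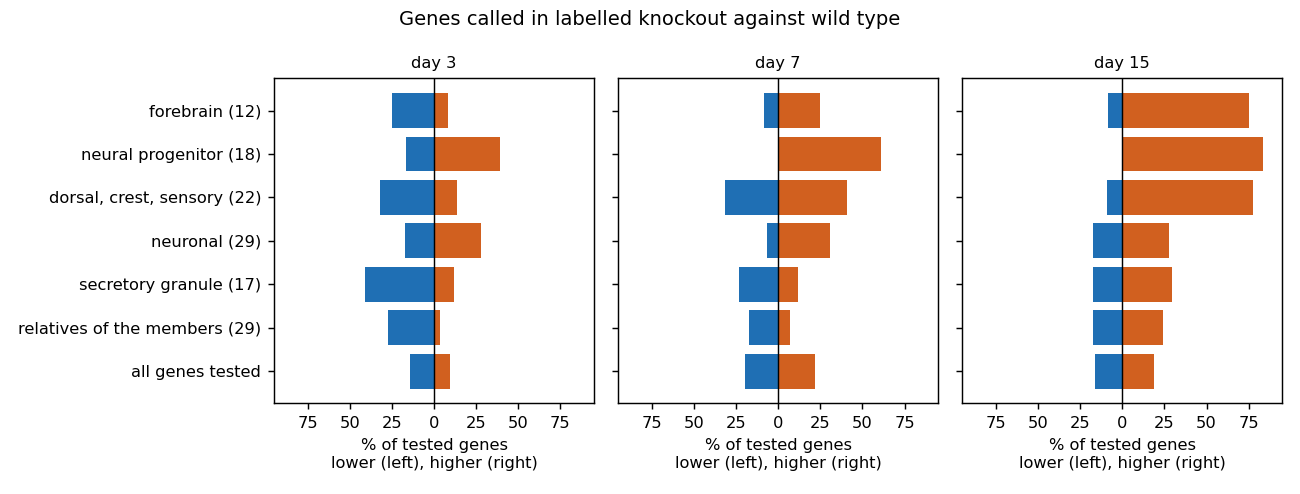
Share of tested genes of each list (number tested in brackets) that were lower (left, blue) or higher (right, orange) in labelled knockout than in wild type at days 3, 7 and 15 by limma at an adjusted p of 0.05, above the share over all 16295 genes. At day 15 the forebrain, neural progenitor and dorsal lists have 75%, 83.3% and 77.3% higher, and the neuronal list 27.6%, beside 18.9% of all genes. The lists were chosen with earlier results of these data known.

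Markers of other cell types that express some of the members moved as well, and their part in the members' values was not tested. Of 13 pluripotency and epiblast genes, 6 were higher and 1 lower at day 3, 11 higher and 1 lower at day 7, and 9 higher and 1 lower at day 15. The 1 lower gene was TDGF1 on each day (-1.08, -2.06 and -2.25, limma adjusted p 0.000577, 5.39e-06 and 4.42e-06). The summed level of the list at day 7 was 962 to 982 FPKM in wild type and 1566 to 1682 FPKM in labelled knockout. Of these sums LIN28A alone held 607 and 824 FPKM, SOX2 21.1 and 155, and ZIC2 7.92 and 107. SOX2, SOX3 and ZIC2 stand in this list and in the neural progenitor list. POU5F1, which defines pluripotent cells, fell in wild type from a mean of 1037 FPKM at day 3 to 112.5 and 30.1 and did not pass the genotype test on any day (-0.29, 0.12 and 0.16, limma adjusted p 0.332, 0.664 and 0.566). NANOG was not analysed here. Of 11 paraxial mesoderm and muscle genes, which bear on PAX3, 8 were lower and 0 higher at day 3, 1 was higher and 1 lower at day 7, and 5 were higher and 1 lower at day 15. Their summed level at day 7 was 218 to 242 FPKM in labelled knockout and 1650 to 1704 in wild type, most of it ACTC1, which cardiomyocytes also express. MYF5 and MYOD1 were not analysed here. Of 4 melanocyte genes tested, 1 was higher and 1 lower at day 3, 0 were called at day 7, and 2 were higher and 2 lower at day 15. Their summed levels at day 7 were 83.5 to 112 FPKM in labelled knockout and 82.6 to 93.5 in wild type. The sums were 197 to 208 against 85.5 to 90.0 at day 3 and 28.7 to 33.4 against 60.2 to 63.1 at day 15. PMEL was at 178 against 38.5 FPKM at day 3 and 19.7 against 57.8 at day 15, and KIT went the other way on both days. MITF and DCT were not analysed here.

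Of 8 glial genes tested, 1, 2 and 3 were higher and 1, 1 and 1 lower at days 3, 7 and 15, and the list summed to 67.6 to 86.6 FPKM in labelled knockout and 122.7 to 128 in wild type at day 15. Of 8 definitive endoderm genes, 7 were lower and 0 higher at days 3 and 7, and 2 were lower and 2 higher at day 15. Of 18 cardiomyocyte genes, 6 were lower at day 3, 16 at day 7 and 12 at day 15, with 0, 0 and 2 higher. Their summed level was 1723 to 1908 FPKM in labelled knockout and 10331 to 10503 FPKM in wild type at day 7, and 4601 to 5560 against 13028 to 14196 FPKM at day 15. The sum hides unlike genes: at day 15 the myosin MYH7 was at 25.9 ± 5.68 FPKM in labelled knockout and 429 ± 47.1 in wild type (-4.01, limma adjusted p = 3.92e-07), while MYH6 was at 873 ± 122.7 and 667 ± 49.5 (0.38, 0.0392, a call that ended under several alternatives). TNNT2, a sarcomere gene, was lower in labelled knockout at day 7 (-2.0, limma adjusted p = 5.19e-05). It was also lower at day 15 (-0.8, 0.0125, a call that ended under some alternatives). Every library of both genotypes held 182 FPKM or more of TNNT2 at days 7 and 15.

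The genes with the profile most like each member over the 12 libraries were found by the root mean square difference of centred log2(FPKM + 1) values among 12572 genes, so a smaller value means a closer profile. For FEZF1 they were CLU (0.64), IRX1 (0.65) and its antisense gene FEZF1-AS1 (0.67). For OTX2 they were ROR2 (0.20), ITPRIPL1 (0.21) and CBLN1 (0.24), and for TUBB3 they were SEZ6L2 (0.15), IGSF1 (0.17) and PNP (0.23). ROR2 went from 88.7 to 23.6 and 6.79 FPKM in wild type and from 38.3 to 33.9 and 23.8 in labelled knockout, with the same crossing as OTX2. The nearest gene of the other members lay farther off, at 0.37 to 0.64. OTX2 and TUBB3 also had the smallest median distance to all these genes, 0.98 and 1.14, against 1.26 to 1.85 for the other members. The distance is not scaled to how much a gene varies, so its size does not compare the members.

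For SP8 the nearest were FGFBP3 (0.51), OR7E12P (0.54) and CDH11 (0.60). For PAX3 they were ZFHX4 (0.51), NR2F1 (0.55) and TPBG (0.58), and for POU3F1 CDH23 (0.51), PIF1 (0.63) and SEMA5B (0.67). MAMDC4 (0.37), U73166.2 (0.44) and TF (0.52) were nearest to POU4F1. MAMDC4 held 16.8 FPKM in wild type and 1.92 FPKM in labelled knockout at day 15, and under 3 FPKM in each other group mean. For MAP2 the nearest were FJX1 (0.56), TTYH1 (0.57) and CACNA1A (0.58), and for VGF MSH5 (0.50), WNT7B (0.58) and AC006128.2 (0.61). With a pseudocount of 0.1 in place of 1, all 3 neighbours of MAP2 were found again, and 2 of the 3 of FEZF1, SP8, POU4F1 and TUBB3. Only 1 of the 3 was found again for OTX2, PAX3 and POU3F1, and 0 of the 3 for VGF. Among the members themselves, OTX2 and TUBB3 were closest (0.68) and PAX3 and TUBB3 farthest apart (2.57). PAX3 and POU4F1 lay 1.81 apart, and MAP2 and TUBB3 2.16, while OTX2 and SP8 lay 0.96 apart, so the 3 groupings by role did not set the order of these distances.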

How the data were processed

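RNA of 12 libraries (2 genotypes, 3 days, 2 libraries each) was analysed. The authors deposited 1 FPKM value per gene and library. No label names this unit, which was taken from how the values behave. Per the submitters' processing notes BWA and GRCh38 (hg38) were used. The program behind the FPKM, the annotation and the strand setting are not stated in the sources used here. All 17096 genes were above 0 in all 12 libraries. Fragment numbers were estimated from the steps between low values, of which 53.2% to 63.2% per library lay within 0.1 of a whole number in 9 libraries. In the other 3 another depth brought a higher share of values near whole numbers (80.0% against 64.2% and 71.4% against 57.3% in wild type at day 15, 50.0% against 48.1% in labelled knockout at day 7), so their estimates have no support. No count test was used and no counting intervals were drawn.

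Tests used limma 3.58.1 in R 4.3.3 with trend on log2(FPKM + 1), with a pseudocount of 1, on the 16295 genes at 1 FPKM or more in at least 2 libraries. The model had 6 group means over all 12 libraries. Two-sided p-values received the Benjamini-Hochberg adjustment across the genes tested, and 0.05 was the threshold. The members and lists were chosen with earlier results of these data known. Members were tested in the wild-type course alone, and gene lists by genotype. All members were named, with fixed context genes, from each list and genotype contrast up to 3 higher and 3 lower genes with the smallest adjusted p whose higher group reached 5 FPKM, and the 3 nearest profiles of each member. List genes so picked whose call ended under an alternative are mostly named with the limits, and of those from lists of other cell types only a few are named. Some context genes fixed by name have no values in the text, and some results are not reported here.

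Alternatives were median-ratio rescaling, scaling to nuclear genes, other filters and pseudocounts, no trend, only the groups compared, a replicate block and leaving out each library. The code was tested on simulated data (16295 genes per comparison): it recovered 65% to 72% of changes of 1 on the log2 scale and 94% to 98% of changes of 2, and 1.2% to 6.9% of calls were false. Changes were placed in a small part of the genes, all at 5 FPKM or more in the reference group. These shares therefore do not carry over to genes at lower levels or to comparisons where many genes change. Gene places are from GENCODE release 29, which held 88.2% of the symbols.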

Additional observations from a re-analysis of the deposited data

Results flagged for a closer look

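The difference between labelled knockout and wild type changed its direction between days for 3 members, with no overlap between the libraries of the genotypes on any of these days. The difference between days was not tested, since the members were chosen on these values. OTX2 was lower in both labelled knockout libraries at day 3 (-0.92 on the log2(FPKM + 1) scale) and higher in both at day 7 (0.53) and day 15 (1.64). SP8 was lower in both at day 3 and higher in both at day 7 (3.75) and day 15 (1.41). Its difference at day 3 was small (-0.23, SE 0.16, and -0.06 after scaling to nuclear genes). POU4F1 was higher in both at day 3 (0.15), where few fragments were counted, and at day 7 (1.43), and lower in both at day 15 (-3.10).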

How the results depend on the processing

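Over all genes, 3849, 6852 and 5723 differed by genotype at days 3, 7 and 15. Leaving out 1 library gave 1998 to 2512, 4512 to 5252 and 3851 to 5538, and a fit on the compared groups alone gave 3563 at day 15. The count of members that rose from day 3 to day 7 in wild type, 2, was 1 to 2 with 1 library left out. Of the 5 neural lists together, 21 genes higher at day 3 became 11 to 17, 14 lower at day 7 became 9 to 12 (9 without wild-type replicate 1), and 11 lower at day 15 became 7 to 12 (7 without wild-type replicate 2). The causes were not tested, except that a left-out library leaves fewer samples. The other 210 counts stayed within 1.5 times, and no direction called by a test reversed. SP8 and POU3F1 from day 7 to day 15 in wild type passed under some alternatives (both at a pseudocount of 0.1 and without the trend, SP8 also at a filter of 5 FPKM, with nuclear scaling and without wild-type day 15 replicate 1, POU3F1 also with median-ratio rescaling and on the compared groups alone). Calls that ended under at least 1 alternative included those of SIX4, TFAP2C, SYT7, TUBB2A and PDGFRA at day 3, SHISA2, TUBA1A, MAP4 and RBFOX2 at day 7, and CRMP1, MC1R, MYH6, PAM, PCSK1N, SCG5, SOX17, SP6, TNNT2 and PDGFRA at day 15.

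Same-numbered libraries of the 2 genotypes had deviations correlated at 0.04, 0.02 and -0.12 at days 3, 7 and 15, so the groups compared by genotype were not taken as paired. Among the labelled knockout groups of different days, which no test compares, the correlations were 0.10 to 0.21. With a replicate block 3859, 6914 and 5791 genes were called. At day 15 the block on the compared groups alone gave 3912 genes and crossed numbers 4787, both added after seeing the data. Low values limit POU4F1 at day 3 and POU3F1 in wild type at day 15.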
